A study of Homo sapiens with 6 samples.

Results

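Small nucleolar RNA host genes are described here by their RNA levels in a human hepatocellular carcinoma line with and without a knockout of DDX17. The group was defined by name: every gene of the deposited expression table called SNHG followed by a number, together with GAS5 and ZFAS1. It held 26 of the 58302 genes in the table, 24 of them numbered SNHG genes, and 23 were expressed highly enough to be among the 15620 genes tested. The cells were MHCC97H, an established line derived from liver cancer and known for its metastatic behaviour. Cells in which CRISPR/Cas9 had been directed at DDX17 (DDX17_KO, 3 libraries) were compared with cells carrying a non-target control (3 libraries), both grown in serum-containing medium with no further treatment named. DDX17 is a DEAD-box RNA helicase, and the series title places the comparison in the study of splicing that depends on it. The labels do not say whether the knockout was 1 clone or a pool, or whether the 3 libraries of a group were separate cultures, so p-values measure only the spread between these libraries, which may be technical.

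A small nucleolar RNA (snoRNA) is a short stable RNA that guides the chemical modification of ribosomal and spliceosomal RNA, and most human snoRNAs lie in introns of longer host genes. Splicing frees the intron, a debranching enzyme opens the lariat, and exonucleases trim it back to the snoRNA protected by its proteins. The spliced host RNA left over often holds no long open reading frame, and many such RNAs are degraded on the ribosome by nonsense-mediated decay. Many host genes also start with a terminal oligopyrimidine (TOP) tract, a C followed by a run of pyrimidines, which is the start known from ribosomal protein genes and which ties translation to growth signals.

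The starts of the host RNAs are shown because some of the members share a TOP tract with ribosomal protein genes. A start was counted as TOP-like where a C was followed by at least 4 bases that were all C or T, read on the strand of the transcript. At least 1 annotated transcript began this way in 14 of 26 members (53.8%) and in 13 of the 23 tested (56.5%), against 13.1% of the 15580 tested genes with an annotated start. Members carry many annotated transcripts, which raises their chance of holding 1. Counted by transcript, the share was 13.6% of 243 in the members and 2.41% of 206694 in all genes. Counted by the single start per gene that RefSeq gives, it was 27.3% of 22 members, 58.3% of 24 ribosomal protein genes that host snoRNAs, and 4.07% of 35116 genes. The first 30 bases of 8 such members follow, from GENCODE release 29 on hg38, 5′ to 3′, with the C and the pyrimidines after it in capitals. Each line is 1 annotated transcript that has the tract, and most of the other transcripts lack it. The tract was in 1 of 1 transcript of SNHG19, 1 of 5 of SNHG8, 6 of 29 of GAS5 and 3 of 10 of ZFAS1. It was in 2 of 8 of SNHG16, 1 of 25 of SNHG1, 4 of 17 of SNHG12 and 3 of 23 of SNHG5. The last 2 lines, all in lower case, are members with no such start.
SNHG19 (chr16:2155329-2155358, minus strand): CTTTTCggggtcgagtccgagggggaagag
SNHG8 (chr4:118278758-118278787, plus strand): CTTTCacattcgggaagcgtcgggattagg
GAS5 (chr1:173867960-173867989, minus strand): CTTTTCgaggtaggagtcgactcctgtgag
ZFAS1 (chr20:49278642-49278671, plus strand): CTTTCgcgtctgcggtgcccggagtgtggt
SNHG16 (chr17:76557769-76557798, plus strand): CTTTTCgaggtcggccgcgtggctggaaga
SNHG1 (chr11:62855450-62855479, minus strand): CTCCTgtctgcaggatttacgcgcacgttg
SNHG12 (chr1:28581844-28581873, minus strand): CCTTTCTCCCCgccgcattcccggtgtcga
SNHG5 (chr6:85678704-85678733, minus strand): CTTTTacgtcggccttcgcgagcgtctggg
SNHG15 (chr7:44986541-44986570, minus strand): ccgccatcctgggccccacgtgttgcctga
SNHG17 (chr20:38435324-38435353, minus strand): cgtagcttccttgtcgtgtggcctcagtcc
GAS5 and SNHG16 were identical over their first 11 bases, and SNHG19 shared its first 7 with each of them. A match of letters at an annotated start is a description of the annotation and not a measured transcript start.

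Across the libraries, the estimated depth ran from 12340000 to 14550000 fragments in the controls and from 5350000 to 10620000 in the knockout, with DDX17_KO replicate 2 the shallowest. DDX17 itself stood at 45.7, 41.4 and 43.9 FPKM (fragments per kilobase of transcript scaled for depth) in control replicates 1, 2 and 3, and at 22.4, 7.64 and 19.1 FPKM in DDX17_KO replicates 1, 2 and 3. It differed by -1.48 on the log2 scale (standard error 0.36), and limma's Benjamini-Hochberg adjusted p of 0.282 missed the threshold of 0.05. Libraries numbered 2 stood apart in both groups: genes of higher GC content deviated upwards from the group mean in control replicate 2 (Spearman's rho 0.571 across genes) and DDX17_KO replicate 2 (0.510), and downwards in the other 4 libraries (-0.522 to -0.311). Defining hepatocyte markers, albumin among them, were nearly absent, none of 10 above 0.365 FPKM in any library. They summed to 0.906 to 1.03 FPKM in the controls and to 0.0126 to 0.0406 FPKM in the knockout. Of 5 epithelial markers, the keratins KRT8 and KRT18 were between 93.9 and 239 FPKM. The others, KRT19, EPCAM and CDH1, were nearly absent, at most 0.337, 0.128 and 0.116 FPKM. Haemoglobin and other red cell markers summed to 54.0 to 69.6 FPKM in the controls and to at most 0.673 FPKM in the knockout; their part in the results below was not tested. In bulk RNA, fewer cells that express a gene and less of its RNA per cell cannot be told apart.

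With all 6 libraries, no host gene was called between DDX17_KO and control. On the log2(FPKM + 1) scale the largest differences were lower SNHG15 and SNHG8 and higher SNHG25 and ZFAS1 in the knockout, each with a 95% confidence interval that held 0. Limma on log2(FPKM + 1), which understates the change of low genes, called 0 of the 23 at an adjusted p of 0.05, and 6 of all 15620 genes, 0.0384%. All 6 were lower in the knockout, and 3 of them were red cell markers. At an unadjusted p under 0.05 limma again called 0 of the 23 members, against 13.5% of all genes. Of the 23, 7 lay above 0 and 16 below, and their median on the log2 scale was -0.11; over all tested genes 47.5% lay above 0 and the median was -0.03. This split was not stable. Without DDX17_KO replicate 3, 12 members lay above 0 and 11 below, with a median of 0.0043. With each library corrected for GC content and transcript length, 11 lay above 0 and 12 below. Without DDX17_KO replicate 2, 5 lay above 0 and 18 below. The knockout and control values did not overlap in 1 member, SNHG5, against 20.7% of all genes.

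**Figure D1:**
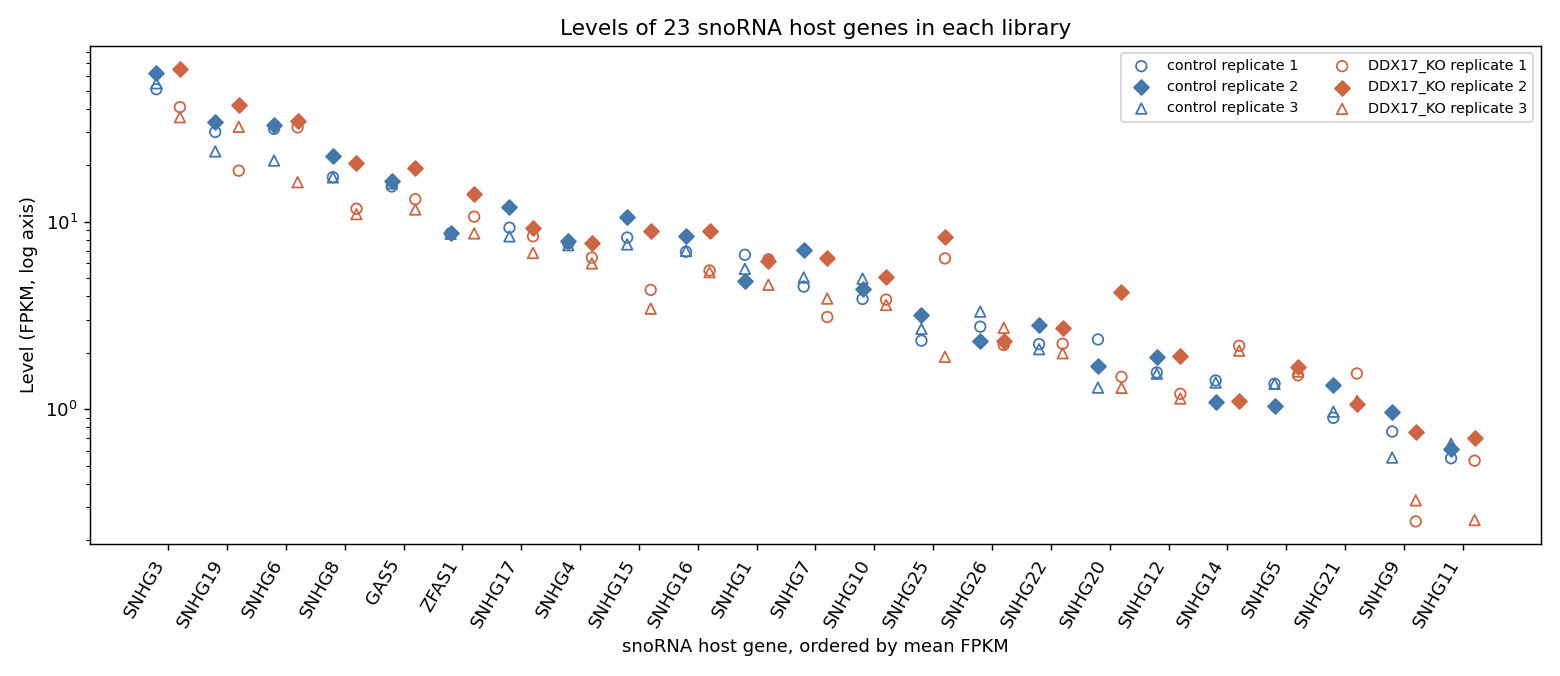
Level of each of the 23 tested host genes (FPKM, log axis) in the 3 control libraries (blue) and the 3 DDX17_KO libraries (orange), ordered by mean level, with filled diamonds for the libraries numbered 2. SNHG5 is the one gene whose groups do not overlap, and the filled diamonds are the highest of both groups in 15 of 23 genes.

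SNHG3, the host of the H/ACA box snoRNAs SNORA73A and SNORA73B, had the highest FPKM of all members. Its level was 50.9, 61.9 and 54.7 FPKM in control replicates 1 to 3 and 40.8, 65.6 and 36.1 FPKM in DDX17_KO replicates 1 to 3. DDX17_KO replicates 1 and 3 were below every control and replicate 2 above every control, so the groups overlapped. The knockout differed by -0.27 on the log2 scale (95% confidence interval -0.86 to 0.32; limma, adjusted p = 0.589). The gene lies at chr1:28505980-28510892 on the strand of RCC1, whose locus overlaps it, and fragments of the shared part cannot be assigned with certainty.

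SNHG19, a short host gene with a single annotated transcript, ranged from 23.7 to 34.1 FPKM in the controls. In the knockout it was 18.7, 42.1 and 32.1 FPKM, which brackets the control range, and the log2 fold change was 0.02 (standard error 0.31). SNHG6, host of SNORD87, was 31.3, 32.8 and 21.2 FPKM in the controls and 31.8, 34.6 and 16.2 FPKM in the knockout. Both genes varied more inside each group than between the groups: the control mean of SNHG6 was 28.4 FPKM (SD 6.29, n = 3) and the knockout mean 27.6 FPKM (SD 9.91, n = 3).

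SNHG8, a lincRNA at chr4:118278709-118279823, is the host of SNORA24. Its controls held 17.3, 22.5 and 17.2 FPKM and its knockout libraries 11.7, 20.5 and 11.0 FPKM. Again DDX17_KO replicates 1 and 3 were below all controls, while replicate 2 lay inside the control range. Its difference on the log2 scale was -0.42 (95% confidence interval -1.04 to 0.20; limma, adjusted p = 0.455). Without DDX17_KO replicate 2 it was -0.69 and not called (limma, adjusted p = 0.0655), and without DDX17_KO replicate 3 it was -0.26. Without both libraries numbered 2 it was -0.56 and was called (limma, adjusted p = 0.0436), in a comparison in which 8.81% of all genes were called and 3.3% were called lower.

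GAS5, named for its accumulation in growth-arrested cells, hosts a series of C/D box snoRNAs in its introns and lies at chr1:173863900-173868882. The controls were close together at 15.4, 16.4 and 16.0 FPKM, and the knockout was spread around them at 13.2, 19.4 and 11.6 FPKM. Its log2 fold change was -0.14 (95% confidence interval -0.65 to 0.37; limma, adjusted p = 0.754). Without DDX17_KO replicate 2 the value was -0.34, and without DDX17_KO replicate 3 it was 0.0043, so that the sign rested on replicate 3.

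ZFAS1 is transcribed away from the start of ZNFX1 and hosts the SNORD12 snoRNAs. Its locus in the table is chr20:49278178-49295738. Control libraries held 8.66, 8.71 and 8.63 FPKM (SD 0.0389), the smallest SD among controls of any tested member. The knockout held 10.6, 14.0 and 8.66 FPKM, with replicates 1 and 2 above every control and replicate 3 within the control range. Its fold change on the log2 scale was 0.30 (standard error 0.21; 95% confidence interval -0.18 to 0.78; limma, adjusted p = 0.479), and it fell to 0.13 without DDX17_KO replicate 2. ZFAS1 and ZNFX1 overlap on opposite strands, and as the strand setting of the counting is not given in the sources used here, their fragments cannot be fully told apart.

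SNHG15, a lincRNA at chr7:44983023-44986961 and host of SNORA9, had the largest fold change of any member below 0 on the log2(FPKM + 1) scale. With a pseudocount of 0.01 in place of 1, SNHG9 at -0.88 lay below SNHG15 at -0.77. SNHG15 measured 8.23, 10.6 and 7.57 FPKM in the controls and 4.33, 8.93 and 3.44 FPKM in the knockout. DDX17_KO replicates 1 and 3 were well below the lowest control, and replicate 2 lay between the controls. The log2 fold change with all libraries was -0.66 (standard error 0.31; 95% confidence interval -1.39 to 0.07; limma, adjusted p = 0.378, unadjusted p = 0.0707). Without DDX17_KO replicate 2 it was -1.00 and was called at an adjusted p of 0.0498 (limma), in a comparison that called 3.66% of all genes and 1.72% lower. Leaving out both libraries numbered 2 gave -0.87 (limma, adjusted p = 0.0429). Both libraries numbered 2 were the highest of their groups. Taken in pairs of the same number, a pairing the labels do not state, SNHG15 was lower in the knockout in 3 of 3. The fit with a replicate block gave an adjusted p of 0.0985 (limma), still not a call. SNHG8, SNHG17, SNHG4, SNHG7 and SNHG9 were also lower in every pair, which makes 6 of 23 members (26.1%) against 27.5% of all tested genes. SNHG14, SNHG5 and ZFAS1 were higher in every pair (13.0% of members, 26.2% of all genes).

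**Figure D2:**
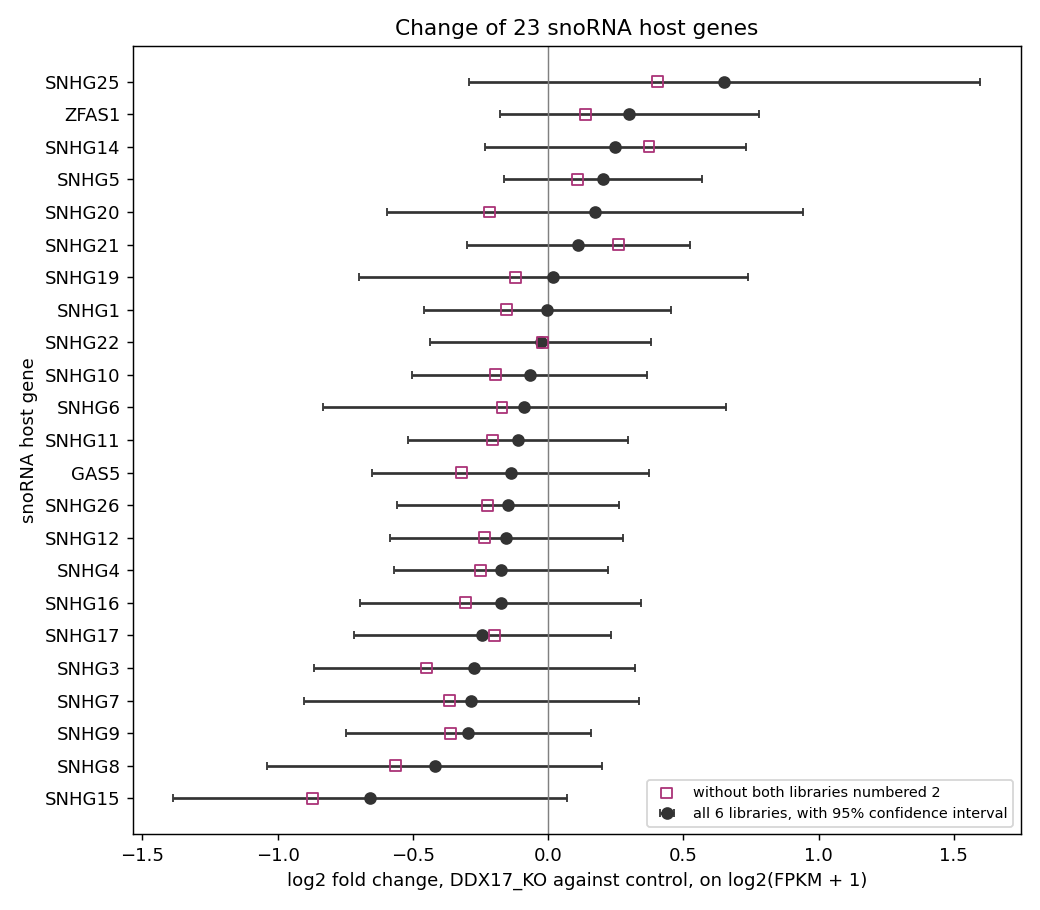
Log2 fold change of each tested host gene, DDX17_KO against control, on the log2(FPKM + 1) scale, with all 6 libraries (black circles, bars are 95% confidence intervals) and without both libraries numbered 2 (open squares). Every interval holds 0, and the squares of SNHG15 at -0.87 and SNHG8 at -0.56 lie further below 0 than their circles.

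In SNHG17, SNHG4, SNHG16 and SNHG7 the groups overlapped as well. SNHG17, host of the SNORA71 family, was 9.29, 11.9 and 8.35 FPKM in the controls and 8.36, 9.27 and 6.81 FPKM in the knockout, a log2 fold change of -0.24 (standard error 0.20). SNHG4, host of SNORA74A, was 7.67, 7.85 and 7.50 FPKM against 6.44, 7.72 and 5.99 FPKM, a log2 fold change of -0.17. In SNHG4 DDX17_KO replicate 2 alone reached the narrow control range, and the locus overlaps that of MATR3 on the same strand. SNHG16, host of SNORD1 copies, was 6.92, 8.36 and 6.98 FPKM in the controls and 5.50, 8.91 and 5.39 FPKM in the knockout (-0.18). SNHG7, host of the SNORA17 pair, was 4.51, 7.04 and 5.04 FPKM against 3.10, 6.39 and 3.89 FPKM (-0.28). Each of these genes had its highest knockout value in replicate 2 and its highest control value in replicate 2.

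SNHG1, whose introns hold SNORD22 and the SNORD25 to SNORD31 series, went against that order. Its control values were 6.66, 4.83 and 5.60 FPKM, lowest in replicate 2, and its knockout values were 6.30, 6.17 and 4.61 FPKM. Group means were 5.70 FPKM in the controls and 5.69 FPKM in the knockout, and the 95% confidence interval of the log2 fold change ran from -0.46 to 0.45. Its direction was not stable across the settings tried.

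SNHG5, host of the SNORD50 pair at chr6:85660950-85678736, was the single member whose groups did not overlap. Control values were 1.37, 1.04 and 1.37 FPKM and knockout values 1.52, 1.68 and 1.59 FPKM, all 3 above every control. The log2 fold change was 0.20 (standard error 0.16; 95% confidence interval -0.16 to 0.57; limma, adjusted p = 0.521). By an exact permutation test (two-sided) p was 0.1, which is the lowest value possible with 3 libraries against 3. Among all tested genes 8.09% had every knockout value above every control, so 1 member of 23 is not more than the background share.

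SNHG25, at chr17:64145970-64146476, had the largest fold change of any member above 0 and the largest standard error, 0.41. It was 2.32, 3.18 and 2.68 FPKM in the controls and 6.37, 8.27 and 1.90 FPKM in the knockout. DDX17_KO replicates 1 and 2 were above every control, and replicate 3 was below every control. These levels stood for few fragments, 11, 17 and 15 in the controls and 26, 17 and 6 in the knockout, recovered as whole numbers from the FPKM values. The log2 fold change of 0.65 had a 95% confidence interval of -0.29 to 1.60 (limma, adjusted p = 0.448). Leaving out DDX17_KO replicate 2 made it 0.32 and leaving out DDX17_KO replicate 3 made it 1.15.

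SNHG9 rested on still fewer fragments, 7, 10 and 6 in the controls and 2, 3 and 2 in the knockout. Summed, that is 23 fragments with a 95% exact Poisson interval of 14.6 to 34.5 in the controls and 7 fragments with an interval of 2.81 to 14.4 in the knockout; both intervals cover counting error only, and the control libraries were deeper. In FPKM the controls were 0.761, 0.964 and 0.553 and the knockout 0.252, 0.752 and 0.327, which overlap through DDX17_KO replicate 2. The log2 fold change was -0.29 (limma, adjusted p = 0.468); it was -0.88 with a pseudocount of 0.01 (adjusted p = 0.463) and -0.03 with the GC and length correction (adjusted p = 0.943).

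SNHG14, the long imprinted transcript that carries the SNORD115 and SNORD116 clusters and runs antisense through UBE3A, was 1.42, 1.10 and 1.39 FPKM in the controls. DDX17_KO replicates 1 and 3 were higher, at 2.18 and 2.05 FPKM, and replicate 2 matched control replicate 2 at 1.10 FPKM. Its log2 fold change was 0.25 (limma, adjusted p = 0.547), and 0.44 without DDX17_KO replicate 2 (limma, adjusted p = 0.0965). DDX17_KO replicate 2 was the lowest of its group in 2 of the 23 members, SNHG14 and SNHG21.

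SNHG20, which overlaps SEC14L1 on the same strand, rested on 1 library. It was 2.36, 1.69 and 1.30 FPKM in the controls and 1.49, 4.21 and 1.30 FPKM in the knockout, and its log2 fold change of 0.17 became -0.20 without DDX17_KO replicate 2. SNHG10, SNHG26, SNHG22, SNHG12, SNHG21 and SNHG11 had log2 fold changes from -0.15 to 0.11, all with overlapping groups. SNHG12, which hosts SNORA44, SNORA61 and SNORA16A and overlaps TRNAU1AP on the other strand, was 1.57, 1.89 and 1.55 FPKM in the controls and 1.21, 1.91 and 1.14 FPKM in the knockout. The 3 members not tested were SNHG28, between 0.0992 and 0.311 FPKM, and SNHG18 and SNHG27, listed at 0 in all 6 libraries. A count of 0 allows up to 3 fragments, which for SNHG18 is 0.0781 FPKM in the deepest library and 0.212 FPKM in the shallowest.

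Most members shared an order of the libraries within each group. DDX17_KO replicate 2 was the highest of the knockout libraries in 19 of 23 members (82.6%; 46.8% of all tested genes), and control replicate 2 the highest of the controls in 16 (69.6%; 44.3%). Both held at once in 15 members (65.2%; 31.9%). DDX17_KO replicate 3 was the lowest of its group in 16 members (69.6%), against 32.4% of all genes. These shares are descriptions, since values of 1 library are not independent across genes. The order was not particular to the members. Ribosomal protein genes that host snoRNAs summed to 1931, 2251 and 1964 FPKM in control replicates 1 to 3. In DDX17_KO replicates 1 to 3 they summed to 1681, 2416 and 1361 FPKM. Their sum was thus also highest in replicate 2 of each group, and lowest of the knockout in replicate 3.

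Measured as deviation from the group mean on the log2(FPKM + 1) scale, the member median was 0.30 in DDX17_KO replicate 2 and -0.22 in DDX17_KO replicate 3, and the same medians over all genes were 0.05 and -0.03. In control replicate 2 the member median was 0.15 against 0.02. The gap between 2 knockout libraries was therefore wider than the member median between genotypes, -0.11. Summed over the members, the level was 217, 248 and 204 FPKM in the controls and 185, 274 and 164 FPKM in the knockout. As a share of the summed FPKM of all genes, it was 0.0767%, 0.0780% and 0.0664% in control replicates 1 to 3. In DDX17_KO replicates 1 to 3 the share was 0.0699%, 0.0741% and 0.0624%, so replicate 2 was highest within the knockout but below control replicates 1 and 2. The members' median GC content, 49.3%, was close to the 49.0% of all tested genes, and the part of GC content in the library pattern was not tested beyond the correction that follows. With each library corrected for GC content and transcript length, 11 members lay above 0 and 12 below, with a median of -0.03. Without DDX17_KO replicate 2 the member median was -0.23, and without both libraries numbered 2 it was -0.21, with 5 members above 0 and 18 below in each case. In the other direction, leaving out DDX17_KO replicate 3 gave the median of 0.0043.

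**Figure D3:**
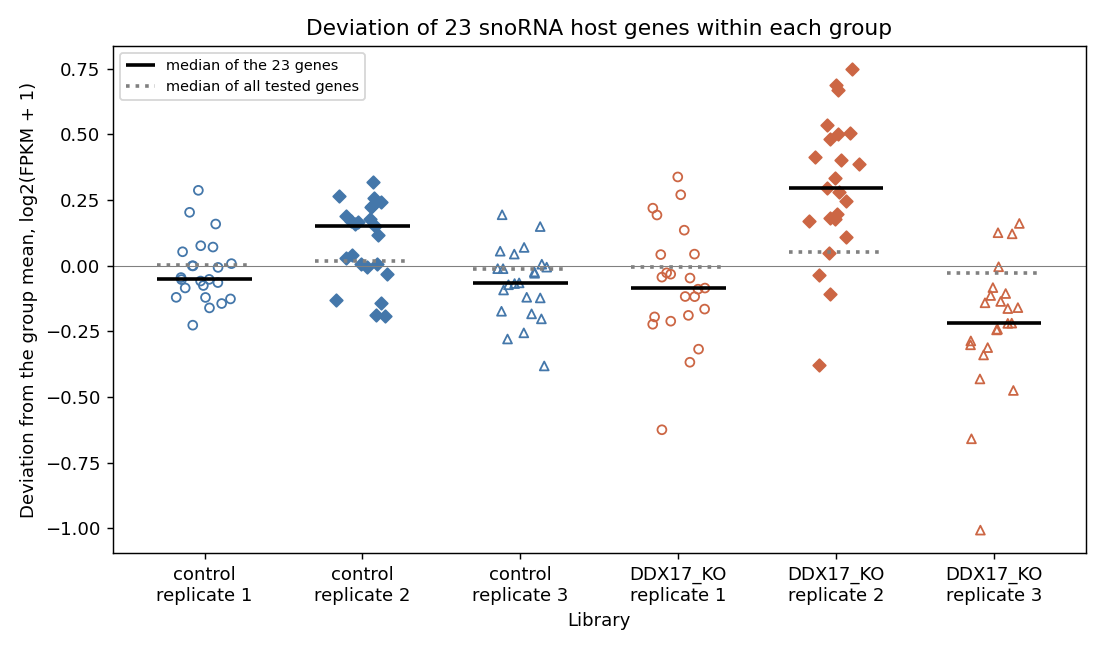
Deviation of each of the 23 tested host genes from the mean of its own group, in log2(FPKM + 1), for each library (points), with the median of the 23 genes (solid bar) and of all tested genes (dotted bar). The solid bar lies at 0.30 in DDX17_KO replicate 2 and -0.22 in DDX17_KO replicate 3, while the dotted bars stay between -0.03 and 0.05.

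Members with and without a TOP-like start had close medians of fold change. The 13 tested members with at least 1 such transcript had 4 above 0, a median log2 fold change of -0.11 and values from -0.42 to 0.65. The 10 without one had 3 above 0, a median of -0.11 and values from -0.66 to 0.25. Of the printed TOP-like starts, SNHG8, GAS5, SNHG16, SNHG12 and SNHG1 (-0.0024) lay below 0, and SNHG5, ZFAS1 and SNHG19 (0.02) above it. The member with the lowest value, SNHG15, had no TOP-like start. The median of the mean levels was 7.19 FPKM with such a start and 2.47 FPKM without. The log2(FPKM + 1) scale understates the change of low genes, so the medians of fold change are not fully alike in measure.

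The order of the members by level depended on the length by which fragments were divided. For genes with 2 annotated transcripts, FPKM times the summed length of both transcripts gave whole fragments (within 0.05) in 65.3% to 66.3% of low values, against 13.4% to 15.4% with the length of the merged exons. Values of genes with many annotated transcripts are then low for their fragments. The plain FPKM ratio of 1 gene between libraries is not touched by this. Its fold change on the log2(FPKM + 1) scale is made smaller, because that scale understates the change of low genes. By deposited FPKM the order was SNHG3, SNHG19, SNHG6, SNHG8 and GAS5. Per kilobase of merged exons it was GAS5 (mean 88.7 FPKM on that length), SNHG3 (63.2), SNHG6 (59.0), SNHG8 (42.5) and ZFAS1 (32.6). GAS5 has 29 annotated transcripts and moved from rank 5 to 1, SNHG1 has 25 and moved from 11 to 6, SNHG5 has 23 and moved from 20 to 12, and SNHG19, with 1, moved from 2 to 7. The member fragments behind the second order are approximate, because 5 of the 26 loci differ between the table and the annotation used.

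**Figure D4:**
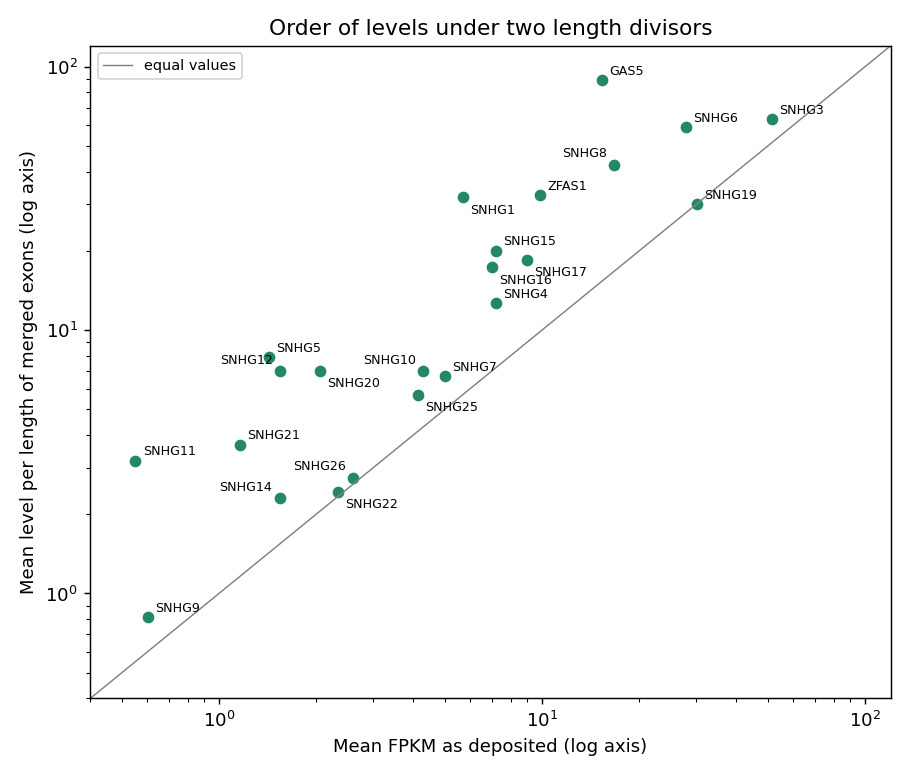
Mean level over the 6 libraries of each tested host gene as deposited (horizontal axis, FPKM, log axis) and per length of merged exons (vertical axis, FPKM on that length, log axis), with a line of equal values. GAS5, at 15.3 on the horizontal and 88.7 on the vertical axis, lies far above the line, while SNHG19 lies on it.

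Protein-coding genes that start within 1000 bases of a member on the other strand were compared for the pairs found. SNHG19 and TRAF7 (340 bases apart), ZFAS1 and ZNFX1 (248), SNHG1 and SLC3A2 (188), SNHG22 and ACAA2 (63) and SNHG9 and RPS2 (99) had partners with overlapping groups and log2 fold changes from -0.46 to 0.07. ZBTB37, a zinc finger gene whose start lies 800 bases from that of GAS5, was 0.718, 0.328 and 0.526 FPKM in the controls and 2.65, 1.02 and 2.75 FPKM in the knockout. The partner of SNHG18, SEMA5A, was below the level for testing. The ZBTB37 groups did not overlap, with a log2 fold change of 1.00 (standard error 0.27; limma, adjusted p = 0.307), while GAS5 was at -0.14. Among all tested genes, 8.09% had every knockout value above every control, as ZBTB37 did. The loci of GAS5 and ZBTB37 overlap on opposite strands, so fragments of the one may be counted for the other. In all, 14 of the 26 members overlap a protein-coding gene, 5 of them on the same strand.

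SnoRNAs inside the member loci were listed in the table as genes of their own, 135 in 24 of the 26 loci and 84 of them in SNHG14. The search found none inside the GAS5 locus, so the snoRNAs of GAS5 are not analysed here. None of the 135 was called (limma, adjusted p), 83 were tested, and 47 were at 0 in every library. Another 26 stood at exactly 1 fragment in every library, so that their FPKM followed the inverse of the depth and was higher in each of the shallower knockout libraries than in any control; these made up 7 of the 15 with an unadjusted p under 0.05, which are 18.1% of those tested against 13.5% of all genes. Of 21 with a mean of at least 10 fragments, 9 had a log2 fold change above 0, and 15 were highest of the knockout in replicate 2, as most of their hosts were. SNORA73B, from SNHG3, was 72.7, 89.5 and 71.1 FPKM in the controls and 70.6, 132 and 49.6 FPKM in the knockout, the same order of libraries within the knockout as its host. SNORA24, from SNHG8, was 22.9, 26.3 and 24.7 FPKM against 18.0, 25.7 and 12.1 FPKM, a log2 fold change of -0.45 beside -0.42 in its host.

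Groups did not overlap in 1 of these 21, a smaller share than the 20.7% of all tested genes. SNORA71C, from SNHG17, was 18.1, 22.5 and 16.9 FPKM in the controls and 11.2, 8.37 and 10.0 FPKM in the knockout, a log2 fold change of -0.89 (limma, adjusted p = 0.257). The other copies in the same host with more than 1 fragment, SNORA71D, SNORA71A and SNORA71B, had overlapping groups and log2 fold changes of -0.69, -0.24 and 0.25. The SNORA71 copies are close in sequence, so how fragments were divided among them is uncertain. SNORD27, from SNHG1, had a spread within the knockout wider than any difference between groups: 27.0, 25.0 and 12.4 FPKM in the controls and 40.5, 2.60 and 33.8 FPKM in the knockout. The 2.60 FPKM stands for 1 fragment, and whether 1 fragment is a minimum set in the counting is not stated in the labels or the table.

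Genes of the host and snoRNA pathway outside the members gave 0 adjusted calls in any of 8 lists. Ribosomal protein genes that host snoRNAs lay mostly below 0, 23 of 27 with a median of -0.27. Above 0 were 14.8% of the list, against 47.5% of all tested genes. Their libraries were not all lower: the list summed to 2416 FPKM in DDX17_KO replicate 2 and to at most 2251 FPKM in a control. The sum over all genes of the table was also highest in DDX17_KO replicate 2, 369195 FPKM against at most 318447 FPKM in a control. The groups did not overlap in RPL10 (log2 fold change -0.62) and RPS13 (-0.33), 7.41% of the list against 12.6% of all genes with the knockout below. Other coding hosts lay above 0 in 17 of 27 with a median of 0.07, and EIF4A2, a translation initiation helicase, was above the controls in every knockout library (0.50), which is 3.70% of the list against 8.09% of all genes. Host genes without coding potential other than the members were DANCR (-0.28), EPB41L4A-AS1 (0.27) and C6orf48 (0.18).

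Among 10 enzymes and exosome components that free and trim the snoRNA, 6 lay above 0 with a median of 0.08. DBR1, the lariat debranching enzyme, was 9.25, 9.54 and 9.28 FPKM in the controls and 6.69, 6.69 and 7.66 FPKM in the knockout, a log2 fold change of -0.37 (limma, adjusted p = 0.369). Of 8 core snoRNA proteins 4 lay above 0; fibrillarin (FBL), the C/D box methyltransferase, was 50.1, 56.1 and 44.7 FPKM against 34.6, 37.5 and 35.0 FPKM, a log2 fold change of -0.48 (limma, adjusted p = 0.369). MPHOSPH6, an exosome cofactor, was wholly above, at 4.09, 2.97 and 4.22 FPKM in the controls and 4.59, 4.78 and 4.95 FPKM in the knockout (log2 fold change 0.29). DBR1 and FBL did not overlap between groups, as 12.6% of all genes did not with the knockout below; with the knockout above, as in MPHOSPH6, it was 8.09%. Assembly factors were above 0 in 5 of 10 and nonsense-mediated decay factors in 5 of 10, with medians of 0.04 and -0.02. The largest assembly and decay log2 fold changes, named after they were seen, were SMG1 at 1.35, UPF2 at 1.08 and ZNHIT6 at 0.89. Each had overlapping groups (limma, adjusted p = 0.369 for each, unadjusted 0.0310, 0.0289 and 0.0367). Limma's unadjusted p was under 0.05 in 1 of 10 assembly and 2 of 10 decay factors, against 13.5% of all genes. The release list reached 0.94, with 0 of 10 under that threshold. Regulators of TOP translation were below 0 in 8 of 10 with a median of -0.17. EIF4EBP1 was at -0.53 and LARP1 at -0.31, both with overlapping groups. MTOR, at -0.18, had no overlap, which is 10.0% of the list against 12.6% of all genes with the knockout below.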

How the data were processed

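Total RNA of 3 control and 3 DDX17_KO libraries was sequenced. The authors deposited FPKM for every gene. Tools listed in the submitters' processing notes are HISAT2, StringTie, CASAVA 1.8 and edgeR, with the build hg38. Strand setting, filters and annotation release were not given in the sources used here. That values are FPKM was read from the table itself: FPKM times transcript length fell on whole multiples of 1 step per library for single-transcript genes (99.97% to 100% of values up to 20 fragments within 0.05), and the step gave the depth. Of the table's identifiers, 58039 were found in GENCODE release 29, which supplied loci, lengths, GC content and starts; RefSeq (GRCh38.p14) supplied single gene starts.

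Log2(FPKM + 1) values were tested by limma (3.58.1, under R 4.3.3) with its trend on intensity, two-sided, for genes whose mean reached 0.5 FPKM, with Benjamini-Hochberg adjustment over all of them; the code was tested on simulated data. Python 3.11.15, pandas 2.3.3 and scipy 1.17.1 did the rest. Groups and replicate numbers came from the sample titles. Members and gene lists were chosen with earlier results of these data known. Values per library are given for the 12 members with the highest mean, members whose groups do not overlap, and any other tested member may be named; from each list the 3 highest genes and those without overlap may be named. The lists were ribosomal and other coding hosts, noncoding hosts, release enzymes, core and assembly proteins, decay factors, TOP regulators, and hepatocyte, epithelial, red cell, leukocyte and stromal markers. Leukocyte markers were at most 0.316 FPKM, and stromal markers summed to 12.6 to 15.8 FPKM in controls and 6.42 to 11.7 FPKM in the knockout. Same-numbered libraries deviated together across genes (correlations 0.300, 0.546 and 0.214), but only the libraries numbered 2 stood apart. Control replicate 1 correlated at 0.329 with DDX17_KO replicate 3, and control replicate 3 at 0.190 with DDX17_KO replicate 1. A pairing by number is therefore not shown for replicates 1 and 3, and the labels do not state one. Alternatives were other pseudocounts, filters, scalings and limma settings, a replicate block, a GC and length correction (splines of 4 degrees of freedom), each library left out, both libraries numbered 2 left out and, chosen after seeing the data, voom on approximate fragments and levels per merged exon length.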

Additional observations from a re-analysis of the deposited data

How the results depend on the processing

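Under 19 other settings, 400 of 431 member values kept their direction and side of the threshold, 28 changed direction and 3 became calls; 13 members never changed direction. The count over all genes, 6, was 3 with no filter on low values and 10 with the GC and length correction. Leaving out 1 library gave 3 (control replicate 1, 2 or 3, or DDX17_KO replicate 3) to 572 (DDX17_KO replicate 2), with 0 to 1 members called, and leaving out both libraries numbered 2 gave 1376, with 2 members called (SNHG8 -0.56 and SNHG15 -0.87). With the replicate block 4 genes were called, no member was, and no member's call changed. Leaving out 1 library moved the log2 fold change of SNHG15 between -1.00 and -0.42, and that of members whose sign changed between -0.34 and 0.0043 (GAS5), -0.10 and 0.12 (SNHG1), -0.19 and 0.011 (SNHG10), -0.21 and 0.0097 (SNHG11), -0.23 and 0.33 (SNHG19), -0.20 and 0.39 (SNHG20), -0.11 and 0.062 (SNHG22), and -0.28 and 0.24 (SNHG6). Other changes of sign were SNHG1 at 0.062 and SNHG22 at 0.026 under median-of-ratios scaling, SNHG1 at 0.0026 under quantile normalization, SNHG17 at 0.015, SNHG7 at 0.011, SNHG22 at 0.10 and SNHG11 at 0.17 with the GC and length correction (with the replicate block or without), SNHG19 at -0.12 and SNHG20 at -0.22 without both libraries numbered 2, and SNHG19 at -0.0092 under voom. The cause was not tested. Depth limits SNHG9 and SNHG25, which rest on 2 to 26 fragments a library.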

Other observations

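Of the 51 snoRNA genes inside member loci other than SNHG14, 18 stood at exactly 1 fragment in every library, among them SNORA9 in SNHG15, SNORD60 in SNHG19, SNORD50B in SNHG5, and SNORD25 and SNORD28 in SNHG1. SNORA9 was 0.610, 0.541 and 0.516 in the controls and 0.708, 1.41 and 0.916 in the knockout, highest in the shallowest library. SNORD123, in SNHG18, was at 0 in every library. The other 32 snoRNA genes there gave 192 values, of which 23 were at 1 fragment, 6 at 0, 25 at 2 to 4 and 138 at 5 or more. Across the table, among genes with 1 annotated transcript and a value above 0 in all 6 libraries, 81 of 286 snoRNA or scaRNA genes and 230 of 597 snRNA, miRNA or misc_RNA genes were at 1 fragment in all 6, against 2 of 776 protein-coding and 5 of 1012 lincRNA or antisense genes.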
